A study of Mus musculus with 2 samples.

Results

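The 31 genes described here encode SR proteins and heterogeneous nuclear ribonucleoproteins (hnRNPs), the main families of RNA-binding proteins that set splice-site choice. They are all rows of the deposited table whose symbol is Srsf followed by a number, or Hnrnp followed by lower-case letters and digits, 11 Srsf and 20 Hnrnp genes of 50508 in all. RNA was sequenced from E14, a line of mouse embryonic stem cells derived from strain 129/Ola, used at passages 15 to 18. It was cultured on gelatin-coated plates with leukemia inhibitory factor (1000 U/ml) and 15% fetal bovine serum. The cells were transfected with Mettl8 siRNA or with scramble siRNA by lipid reagent and harvested after 72 h. Each group is 1 library. The series record speaks of triplicates, and no label says whether a library pools several cultures. The question named in the study's title is how Mettl8, a target of STAT3, bears on differentiation and the JNK pathway.

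The values of the targeted gene go against the labels. Mettl8, which encodes a methyltransferase of mitochondrial transfer RNA, was at 100.3 FPKM in the library labelled Mettl8 siRNA, against 0.67 FPKM in the library labelled scramble siRNA. FPKM are fragments per kilobase of gene length and per 1000000 reads. Below, a gene is called higher or lower by its value in the library labelled Mettl8 siRNA. With no replicates, no test between the groups was made, no p-value is given, and the spread between cultures is unknown. The genes of the table held 21.4 M reads in the library labelled Mettl8 siRNA and 22.2 M in the library labelled scramble siRNA, where M is 1000000. The 5 pluripotency markers were abundant: Nanog at 173 and 175 FPKM in these libraries, Pou5f1 at 164 and 155, Zfp42 at 98.0 and 104, Sox2 at 85.8 and 94.8 and Esrrb at 48.3 and 50.1. Of these, 1 was higher and 4 lower as deposited, with a median log2 difference of -0.052, whereas rescaling to the same FPKM sum put 4 higher and 1 lower and their median at 0.040. Sox2 had the largest difference of the 5, at -0.14 as deposited. Of the fibroblast markers, 0 of 7 reached a mean of 1 FPKM.

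SR proteins carry RNA recognition motifs and a tail rich in arginine and serine. They bind exonic enhancer sequences and recruit the early spliceosome, and kinases of the SRPK and CLK families phosphorylate the tail. The hnRNPs coat nascent transcripts, often bind silencer sequences and in many exons counteract SR proteins. They also act in RNA export, decay and localisation. Many genes of both families limit their own protein through alternative exons that send the transcript to nonsense-mediated decay, a route known from several mammals.

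Most genes of both families were highly expressed in both libraries, and a few genes held a large part of the FPKM sum. The 3 highest hnRNP genes held 47.6% of the family's sum in the library labelled Mettl8 siRNA and 47.3% in the library labelled scramble siRNA. The 3 highest SR genes held 53.7% and 53.4%. The 20 hnRNP genes summed to 1014 FPKM in the library labelled Mettl8 siRNA and 975 FPKM in the library labelled scramble siRNA. The 11 SR genes summed to 444 and 409 FPKM. Hnrnpa1 held 24.5% of the hnRNP sum in the library labelled Mettl8 siRNA and 24.9% in the library labelled scramble siRNA. Srsf2 held 24.3% and 24.0% of the SR sum. The median hnRNP gene was at 34.0 and 31.9 FPKM and the median SR gene at 31.1 and 30.5 FPKM. Of the 31 genes, 30 had a mean of at least 1 FPKM and 25 of at least 10 FPKM. Srsf12 alone was below a mean of 1 FPKM, at 0.31 FPKM in the library labelled Mettl8 siRNA (27 reads) and 0.26 FPKM in the library labelled scramble siRNA (23 reads). Hnrnph3, Hnrnpr and Srsf4 were also low, at ranks 6833, 6295 and 6068 in the library labelled Mettl8 siRNA. These ranks are among 9965 protein-coding genes with a mean of at least 1 FPKM.

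**Figure D1:**
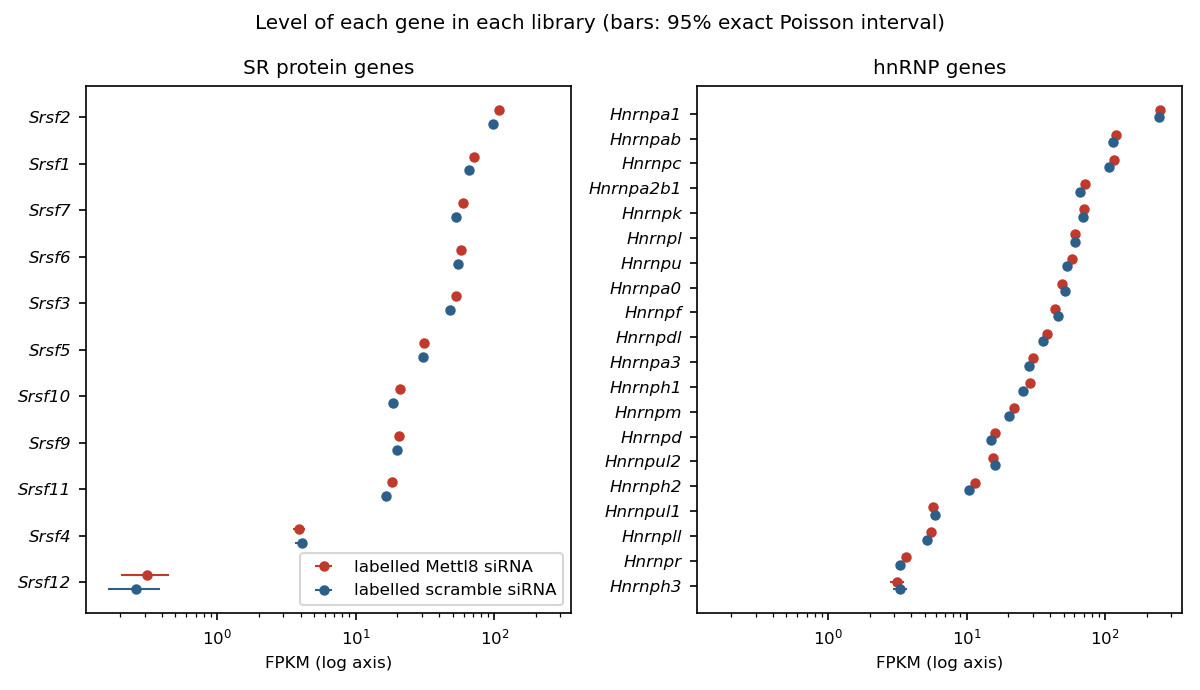
FPKM (log axis) of the 11 SR genes (left) and 20 hnRNP genes (right), in the libraries labelled Mettl8 siRNA (red) and scramble siRNA (blue); bars are 95% exact Poisson intervals, which cover counting error only. Hnrnpa1 at 248 and 243 FPKM lies highest and Srsf12 at 0.31 and 0.26 FPKM lowest, and the points of the libraries lie close together for every gene.

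Among the SR genes, Srsf2 led at 108 FPKM in the library labelled Mettl8 siRNA and 98.1 FPKM in the library labelled scramble siRNA. SRSF2 stays in the nucleus and marks nuclear speckles. Srsf1, the gene of the SR protein first purified as a splicing factor, was at 71.0 and 65.7 FPKM. A middle group held Srsf7 (59.4 and 52.6 FPKM), Srsf6 (57.7 and 54.5 FPKM) and Srsf3 (53.1 and 47.9 FPKM). SRSF3 and SRSF7 also act as adaptors for mRNA export, and SRSF7 carries a zinc knuckle beside its RNA recognition motif. Srsf7 and Srsf6 stood in opposite order in the libraries, and their Poisson intervals overlapped in both. Srsf5 followed at 31.1 and 30.5 FPKM. Srsf10 (20.7 and 18.7 FPKM), whose protein represses splicing when it is dephosphorylated, and Srsf9 (20.4 and 19.9 FPKM) likewise changed places with overlapping intervals. Srsf11 was at 18.4 and 16.6 FPKM. Srsf4 was far below these, at 3.89 and 4.06 FPKM. The SR genes thus spanned from Srsf12 to Srsf2, 349-fold above it in the library labelled Mettl8 siRNA and 377-fold in the library labelled scramble siRNA.

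Hnrnpa1, whose protein is the best-known binder of splicing silencers, was the most abundant member at 248 FPKM (interval 244 to 252) in the library labelled Mettl8 siRNA and 243 FPKM in the library labelled scramble siRNA. It ranked 51 and 54 among 9965 protein-coding genes with a mean of at least 1 FPKM. It lies on chromosome 15 (GRCm38, 103240432 to 103246692, plus strand). Hnrnpab was next at 119 and 113 FPKM, 2.09 and 2.15 times below Hnrnpa1. Hnrnpc, whose protein binds uridine tracts as a tetramer, was at 115 and 106 FPKM. Intervals of Hnrnpab and Hnrnpc overlapped only in the first of these libraries.

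In the rest of the A/B and D group, Hnrnpa2b1 was at 71.9 and 65.2 FPKM, Hnrnpa0 at 48.4 and 51.2 FPKM, Hnrnpdl at 38.1 and 35.4 FPKM and Hnrnpa3 at 29.95 and 28.4 FPKM. Hnrnpd, whose protein binds AU-rich elements and promotes mRNA decay, was at 16.2 and 15.1 FPKM. The level within this group of 7 thus varied more than 10-fold between Hnrnpa1 and Hnrnpd in each library. Hnrnpk, with KH domains that bind cytidine-rich RNA, was at 70.0 and 69.5 FPKM. Hnrnpl, which binds CA repeats, was at 60.7 and 60.2 FPKM, while its paralog Hnrnpll, known for splicing of the CD45 gene in T cells, was at 5.51 and 5.20 FPKM. Hnrnpu, the gene of a nuclear scaffold protein that holds Xist RNA on the inactive X chromosome, was at 57.5 and 53.1 FPKM. Its paralogs Hnrnpul2 (15.4 and 16.1 FPKM) and Hnrnpul1 (5.72 and 5.94 FPKM), linked to repair of DNA breaks, were lower in level. One paralog therefore dominated the L and U groups in both libraries.

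The F/H proteins bind runs of guanosine. Hnrnpf was at 43.2 and 45.4 FPKM, Hnrnph1 at 28.7 and 25.6 FPKM, Hnrnph2 at 11.5 and 10.5 FPKM and Hnrnph3 at 3.14 and 3.29 FPKM. By FPKM the order F, H1, H2, H3 was the same in both libraries, but per kilobase of principal transcript Hnrnph1 (69.1 and 61.7 reads per M) stood above Hnrnpf (54.8 and 57.6). Hnrnpm was at 22.1 and 20.4 FPKM, and Hnrnpr at 3.67 and 3.31 FPKM. Hnrnpr and Hnrnph3, the lowest hnRNP genes, had overlapping intervals in both libraries.

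These levels depend on the gene length by which the authors divided. The deposited length equals the union of all annotated exons in GENCODE M21 for 24 of the 31 genes, so bases of retained introns and of decay isoforms are counted in. The deposited length was 1.42 times the principal protein-coding transcript at the median member, against 1.201 times at the median of 2867 protein-coding genes with a mean of at least 10 FPKM, and at least 2 times for 9 members. For Hnrnpa2b1 it was 6584 bases, 3.96 times the transcript of 1662 bases, and 63.0% of these bases lie outside every protein-coding transcript. Counted per kilobase of principal transcript, Hnrnpa2b1 reached 285 reads per M in the library labelled Mettl8 siRNA and 258 in the library labelled scramble siRNA. On that scale it stood above Hnrnpa1, at 248 and 243. Hnrnpll reached 20.6 and 19.5, Srsf11 49.9 and 45.2, and Srsf5 79.0 and 77.6. The order of the SR genes changed too. Srsf2 stayed first at 168 and 153, but Srsf3 (104 and 93.4), Srsf5 and Srsf6 (78.7 and 74.3) stood above Srsf1 (75.6 and 70.0). Of the 10 highest members by FPKM in the library labelled Mettl8 siRNA, 7 were also among the 10 highest by this length. Reads on the extra exons were not separated from the others in the gene totals, so neither scale is the level of the protein-coding isoform alone. Differences between the libraries do not depend on the length, except through the pseudocount.

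**Figure D2:**
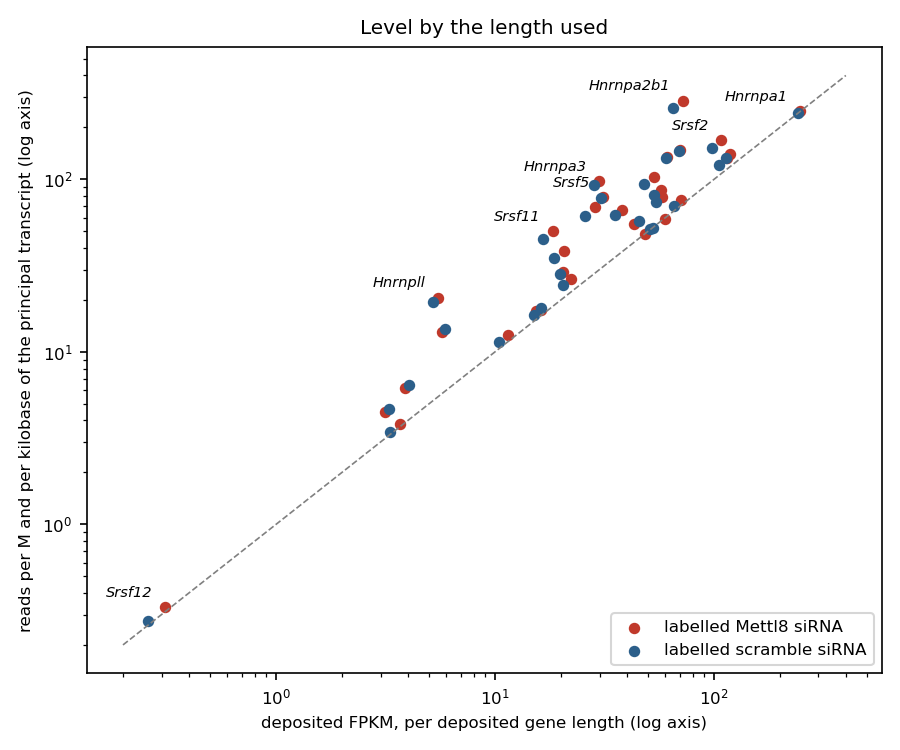
Deposited FPKM (x axis, log) against reads per M and per kilobase of the principal GENCODE M21 transcript (y axis, log) for the 31 genes in the library labelled Mettl8 siRNA (red) and the library labelled scramble siRNA (blue); the dashed line marks equality. Most genes lie above the line, Hnrnpa2b1 and Hnrnpll farthest, and Hnrnpa1, whose deposited length is that of its transcript, lies on it.

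Decay isoforms are annotated for many members, but not for all. Whether they are the ones by which these genes limit their own protein was not examined. A transcript of the nonsense-mediated decay class is annotated for 9 of 11 SR genes and 10 of 20 hnRNP genes, 61.3% of the members. Among genes at 10 FPKM or more, the share was 60.0% of 25 members and 28.0% of 2867 protein-coding genes. Retained-intron transcripts are annotated for 22 of all members, 71.0%. At 10 FPKM or more the share was 68.0% of the 25 members and 61.9% of the 2867 genes. Coding sequences in a single exon occur in 3 members, Hnrnpa0, Hnrnpf and Hnrnph2. Gene totals do not separate isoforms, so how much of any decay transcript was present was not analysed here.

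Pseudogene copies of several members lie elsewhere in the genome. Of the pseudogenes in the table, 59 matched the principal transcript of 14 members at 90% identity or more over at least 300 bases, 30 of them Hnrnpa3 and 9 of them Hnrnpa1. Their values were low beside those of the members. The pseudogene with the highest value was Gm7964 on chromosome 7, a copy of Hnrnpk at 99.2% identity over 1375 bases, with 12.6 FPKM in the library labelled Mettl8 siRNA and 11.8 FPKM in the library labelled scramble siRNA. Gm10052 on chromosome 9 was identical to Hnrnpa1 over 752 bases and stood at 5.06 and 4.94 FPKM. Gm9761 on chromosome 3 matched Srsf3 at 99.6% over 492 bases and stood at 2.85 and 1.93 FPKM. How reads that fit several places were treated is not given in the sources used here, so the members with copies are uncertain by an unknown amount. To show how little separates gene and copy, stretches of 41 bases around 1 mismatch in the coding sequence follow, with the differing base in capitals. They were read from GENCODE M21 transcripts, and positions are counted from the first base printed, member base first. The substitution is A21T for Hnrnpk and G21A for Srsf3.
Hnrnpk: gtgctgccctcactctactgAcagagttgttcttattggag
Gm7964: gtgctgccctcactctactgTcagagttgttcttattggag
Srsf3: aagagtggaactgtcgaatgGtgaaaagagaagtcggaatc
Gm9761: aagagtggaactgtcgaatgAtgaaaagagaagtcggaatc

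In the annotation, 11 members overlap exons of a gene on the opposite strand and 3 overlap a gene on the same strand, some of them genes that also have pseudogene copies. Among these, 748 of the 2958 bases of Srsf2 lie over exons of Mettl23 and Mfsd11, and 1532 of the 3561 bases of Srsf4 over Gm12992. The strand setting of the counting is not given in the sources used here, so reads of such pairs cannot be told apart.

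Between the libraries, the members differed little, and most were slightly higher. Each difference was taken on the log2(FPKM + 1) scale, library labelled Mettl8 siRNA minus library labelled scramble siRNA. On this scale the change of weakly expressed genes is understated. In bulk RNA, a change in some cells and a smaller change in all cells cannot be told apart. Of the 30 members with a mean of at least 1 FPKM, 24 were higher and 6 lower, and 30 were higher and 0 lower when the libraries were rescaled to the same FPKM sum. Over all 13243 genes kept by that limit, 54.1% were higher and 45.0% lower as deposited, and over the 2882 protein-coding genes at 10 FPKM or more 63.2% were higher and 36.3% lower. The rescaling moved all genes upward, with 75.5% of all kept genes and 88.5% of the abundant protein-coding genes then higher. All kept genes summed to 580100 FPKM in the library labelled Mettl8 siRNA and 619677 FPKM in the library labelled scramble siRNA. Protein-coding genes made up only 142239 and 141113 FPKM of these sums. The rescaling factor therefore rests mainly on rows that are not protein-coding genes. With the median of all kept genes set to 0, 22 members were higher and 8 lower, and 58.1% of the abundant protein-coding genes were higher. Of the 25 members at 10 FPKM or more, 22 were higher and 3 lower. The median difference was 0.087 over the 30 members, against 0.013 over all kept genes. It was 0.10 over the 25 abundant members, against 0.033 over the 2882 protein-coding genes.

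No member reached a 1.5-fold difference, which 1.06% of all kept genes did upward and 1.05% downward. Few protein-coding genes reached it either, 4 upward and 6 downward of the 9965 kept. Of the 2882 abundant ones, 2 did so upward and 1 downward. At the smaller limit of 1.1-fold on the same scale, 6 of 30 members were higher and 0 lower. Of all kept genes 14.2% passed it upward and 13.7% downward, and of the 2882 abundant protein-coding genes 10.2% and 5.14%. The 6 members were Srsf7, Hnrnph1, Srsf3, Srsf10, Hnrnpa2b1 and Srsf2. Hnrnpa2b1 and Srsf2 lay just past the limit of 0.1375 on the log2 scale, and Srsf11, at 0.135, just short of it. With the median of all kept genes set to 0, 2 of 30 members, 6.67%, passed the limit upward, below the 12.3% of all kept genes. With libraries rescaled to the same sum, 19 members, 63.3%, and 33.7% of all kept genes passed it. Whether the members' share lay above or below that of all kept genes changed with the scaling.

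Srsf7 had the largest difference, 0.17 on the log2 scale, from 3769 reads in the library labelled Mettl8 siRNA and 3410 in the library labelled scramble siRNA. Its ratio was 1.13, with an exact counting interval of 1.08 to 1.18. Hnrnph1 followed at 0.16, with a ratio of 1.12 (1.08 to 1.17). Srsf3 had a ratio of 1.11 (1.07 to 1.15), Srsf10 of 1.11 (1.06 to 1.16), Hnrnpa2b1 of 1.102 (1.08 to 1.13) and Srsf2 of 1.102 (1.07 to 1.14). These intervals exclude 1, but they compare 2 libraries and cover counting error only.

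The lower members were Hnrnpa0, Hnrnpf, Hnrnpul2, Hnrnph3, Srsf4 and Hnrnpul1, at log2 differences between -0.081 and -0.046, and each of these 6 turned slightly positive, from 0.011 to 0.034, with libraries rescaled to the same sum. Hnrnpa0, whose protein binds AU-rich elements, had 3604 reads in the library labelled Mettl8 siRNA and 3906 in the library labelled scramble siRNA, a ratio of 0.944 (0.902 to 0.988). For Hnrnpf the ratio was 0.952 (0.909 to 0.996). The intervals of the other 4 included 1, among them Hnrnph3 with 275 and 295 reads and Srsf4 with 385 and 411 reads. Of the 25 members at 10 FPKM or more, 17 had an interval wholly above 1 and 2 wholly below. Among the 2882 abundant protein-coding genes these shares were 25.7% and 11.3%. The members carried more reads, 4464 at the median against 1886, and their intervals are narrower for that reason.

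**Figure D3:**
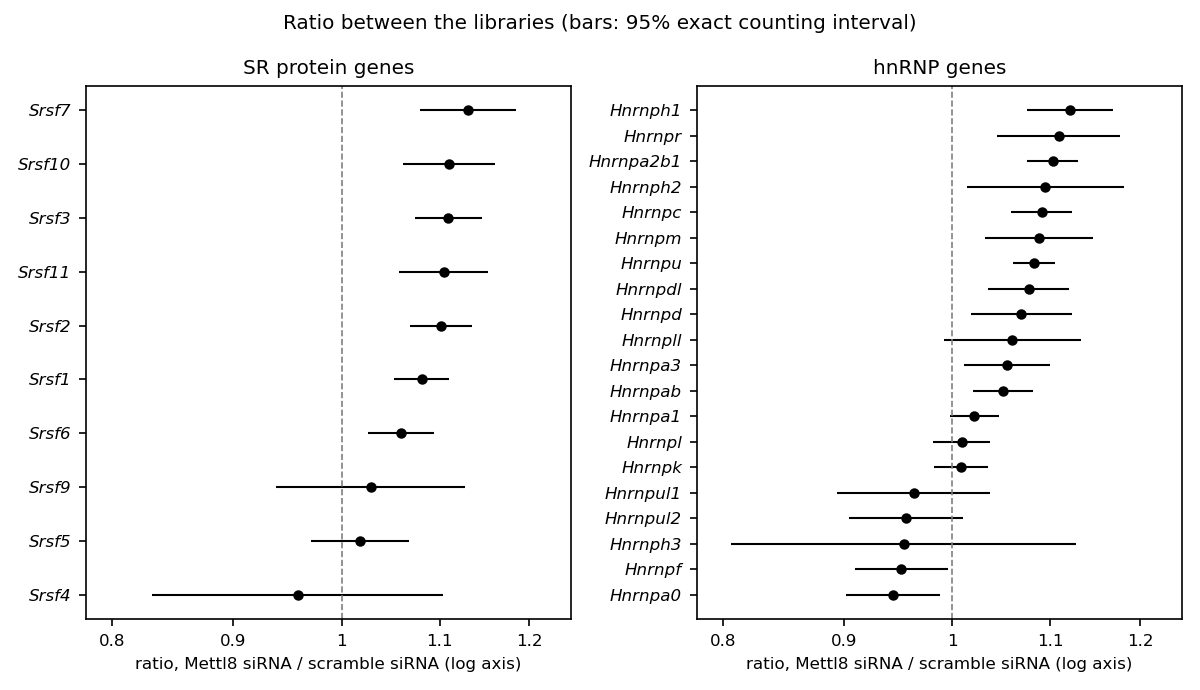
Ratio of read levels in the library labelled Mettl8 siRNA over the library labelled scramble siRNA (log axis) for the 30 SR and hnRNP genes with a mean of at least 1 FPKM; bars are 95% exact counting intervals and the dashed line marks a ratio of 1. The ratios run from 0.944 for Hnrnpa0 to 1.13 for Srsf7, with 24 above 1 and 6 below as deposited and 30 above 1 when libraries are rescaled to the same FPKM sum.

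Within the SR family, genes of proteins with different numbers of RNA recognition motifs differed in their values. The genes of SR proteins with a single RNA recognition motif, Srsf2, Srsf3, Srsf7, Srsf10 and Srsf11, lay between 0.14 and 0.17 on the log2 scale, with a median of 0.14. Those with a pair of such motifs, Srsf1, Srsf4, Srsf5, Srsf6 and Srsf9, lay between -0.049 and 0.11, with a median of 0.039, and the lowest of them, Srsf4, was at 0.026 with libraries rescaled to the same sum. The ranges of these groups of 5 did not overlap. The counting intervals of the genes nearest the gap did, with ratios of 1.06 to 1.15 for Srsf11 and 1.05 to 1.11 for Srsf1. Srsf12, also of the single-motif kind, was left out for its low level. Its log2 difference of 0.056 lay within the range of the second group, and its ratio of 1.201 had an interval of 0.663 to 2.19. GC content, the share of guanosine and cytidine in the principal transcript, ranged from 40.0% to 50.0% in the first group and from 40.6% to 56.8% in the second. The medians were 41.4% and 44.6%. The ranges overlap, and Srsf9 and Srsf4 of the second group lie above the first. The part of GC content in the difference was not tested.

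Among the hnRNP genes no such split was seen. Beside the counts that follow, 54.1% of all 13243 kept genes and 63.2% of the 2882 abundant protein-coding genes were higher as deposited. The A/B and D group had 6 of 7 members higher with a median of 0.074, and its highest and lowest were Hnrnpa2b1 at 0.14 and Hnrnpa0 at -0.081 as deposited, or 0.011 for Hnrnpa0 with libraries rescaled to the same sum. The F/H group was divided as deposited, with Hnrnph1 at 0.16 and Hnrnph2 at 0.12 and with Hnrnph3 at -0.051 and Hnrnpf at -0.070; rescaling to the same sum put the last of these at 0.020 and 0.022. In the U group Hnrnpu was at 0.11, with a ratio of 1.08 (1.06 to 1.11) on 18541 and 17524 reads. Hnrnpul1 and Hnrnpul2 were at -0.046 and -0.061 as deposited, and at 0.034 and 0.027 with libraries rescaled to the same sum. Hnrnpc was at 0.12, Hnrnpm at 0.12 and Hnrnpr at 0.12. Hnrnpa1, the most abundant, was at 0.031, with a ratio of 1.02 (0.997 to 1.05), and Hnrnpab, the next in level, at 0.071. The differences smallest in size were those of Hnrnpl at 0.013 and Hnrnpk at 0.012, which were -0.0001 and -0.0017 with the median of all kept genes set to 0.

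GC content of the transcript moved with the differences across the members. The 6 lower members had a median GC content of 51.8%, against 44.7% in the 24 higher members, with ranges of 44.1% to 56.8% and 40.0% to 56.2% that overlap. Across the 30 members, Pearson's r between GC content and difference was -0.63 and Spearman's rho -0.54. Across the 2867 abundant protein-coding genes r was -0.22 and rho -0.32. The sets differ in their lower limit, a mean of 1 FPKM for the members and of 10 FPKM for the other genes, here and in the GC ranges below. Genes of 1 pair of libraries share depth and library preparation, so these values describe the pair and carry no p-value. Below 42% GC, 8 of 8 members and 80.3% of 274 abundant protein-coding genes outside the families were higher, with medians of 0.12 and 0.074. From 42 to 46%, 10 of 11 members and 76.5% of 494 other genes were higher, with medians of 0.074 and 0.057. From 46 to 51%, 4 of 6 members and 68.1% of 784 other genes were higher, with medians of 0.087 and 0.041. At 51% and above, 2 of 5 members and 51.2% of 1290 other genes were higher, with medians of -0.046 and 0.0032 as deposited. Rescaling to the same sum made all 5 members positive. Srsf4 and Hnrnpul1, lower as deposited, had means of 3.975 and 5.83 FPKM, below the limit used for the other genes. The median member had 44.9% GC and the median abundant protein-coding gene 50.1%. The part of GC content in the count of higher members was not tested. The share of bases outside protein-coding transcripts had a weaker relation to the difference, with r of 0.12 and rho of 0.18 over the 30 members.

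**Figure D4:**
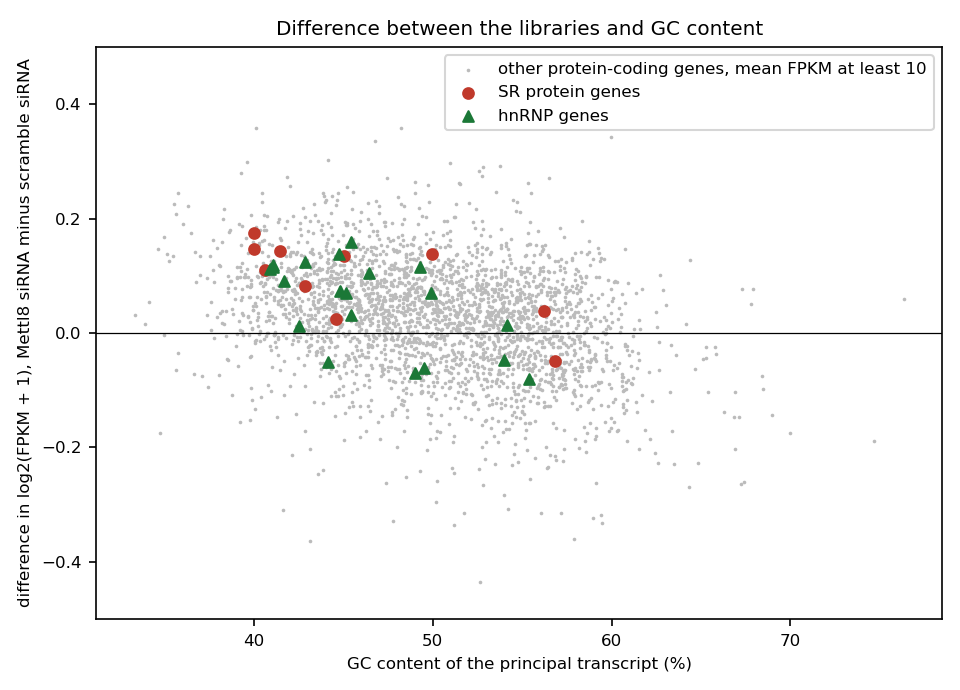
Difference in log2(FPKM + 1), library labelled Mettl8 siRNA minus library labelled scramble siRNA (y axis), against GC content of the principal transcript in percent (x axis) for 10 SR genes (red circles), 20 hnRNP genes (green triangles) and other protein-coding genes with a mean of at least 10 FPKM (grey; 7 genes beyond 0.5 in size are not drawn). Members, drawn from a mean of 1 FPKM, lie between 0.091 and 0.17 below 42% GC. As deposited, 3 of the 5 members at 51% and above lie below 0, which rescaling to the same FPKM sum turns positive.

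The printed sequences upstream of 3 genes show the promoters at the ends of these orders, that of the most abundant member and those of the members with the largest positive and negative difference. They are the 120 bases before the annotated start (RefSeq, GRCm38.p6), 5′ to 3′ on the strand of the gene. Capitals mark the CCAAT box and the GC box, which is read as GGGCGG, on either strand. Hnrnpa1 is at chr15:103240277-103240396 on the plus strand, Srsf7 at chr17:80207306-80207425 on the minus strand and Hnrnpa0 at chr13:58128557-58128676 on the minus strand.
Hnrnpa1: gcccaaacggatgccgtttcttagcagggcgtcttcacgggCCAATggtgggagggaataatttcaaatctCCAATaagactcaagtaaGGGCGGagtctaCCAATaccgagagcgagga
Srsf7: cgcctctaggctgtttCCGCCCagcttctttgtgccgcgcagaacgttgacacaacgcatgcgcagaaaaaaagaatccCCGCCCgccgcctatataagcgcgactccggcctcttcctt
Hnrnpa0: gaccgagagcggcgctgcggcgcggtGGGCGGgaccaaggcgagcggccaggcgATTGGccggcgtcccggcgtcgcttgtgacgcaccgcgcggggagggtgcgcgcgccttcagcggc

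The stretch of Hnrnpa1 holds 3 CCAAT boxes and that of Hnrnpa0 is the richest in GC, at 79.2%, against 58.3% for Srsf7 and 51.7% for Hnrnpa1. RefSeq windows matched 29 of the 31 genes, with 41 windows in all. The 7782 protein-coding genes compared below had 9882 windows. A gene was counted if any of its windows held the motif, so genes with more windows had more chances of a match. In the 250 bases upstream, a GC box was found in 24 of 29 members, 82.8%, against 66.6% of 7782 protein-coding genes with a mean of at least 1 FPKM. A CCAAT box was found in 16 members, 55.2%, against 41.9%. TATAAA occurred in 3 members, Hnrnpm, Srsf2 and Srsf3, 10.3% against 6.81%. CCGGAAG, the core of ETS sites, occurred in 6, 20.7% against 18.0%, and AAGATGGC, the core of YY1 sites, in 1, Hnrnpul1, 3.45% against 2.71%. Both strands were searched and no motif overlapped another in the stretches shown. The members' windows had a median GC content of 68.0%, against 60.0%, and the part of this GC content in the motif shares was not tested. A match describes letters and is not a site of binding.

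Genes that act on or beside these proteins differed about as little. For the counts here, the shares higher were 54.1% of all 13243 kept genes and 63.2% of the 2882 abundant protein-coding genes. All 9 kinase genes of the SRPK, CLK and related group were kept, 6 higher and 3 lower, with a median of 0.030. Prpf4b, a nuclear kinase of the spliceosome, was at 14.6 FPKM in the library labelled Mettl8 siRNA and 13.6 FPKM in the library labelled scramble siRNA, Clk4 at 5.93 and 5.51 FPKM and Srpk1 at 14.5 and 13.8 FPKM. The 3 transportin genes, which carry SR and hnRNP proteins into the nucleus, had a median of 0.035, with Tnpo1 at 32.7 and 31.3 FPKM, Tnpo2 at 39.6 and 38.8 FPKM and Tnpo3 at 13.4 and 13.0 FPKM. Of the 8 kept genes of arginine methyltransferases, which modify hnRNP glycine-arginine repeats, 5 were higher, with a median of 0.026. Prmt3 was at 8.17 and 7.15 FPKM, Prmt1 at 49.99 and 48.1 FPKM and Prmt7 at 11.7 and 11.3 FPKM.

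As deposited, the SR-related and hnRNP-related genes under other symbols were nearly evenly divided, and the other splicing regulators were more often lower. Over all 13243 kept genes, 54.1% were higher and 45.0% lower. Among 18 kept SR-related genes, 10 stood higher and 8 lower (median 0.0078). Bclaf1 was at 16.4 and 14.5 FPKM, Tra2a, a splicing activator with an arginine-serine tail, at 18.8 and 17.1 FPKM, and Srrm2, a core protein of nuclear speckles, at 32.4 and 35.4 FPKM. Among 17 kept hnRNP-related genes, 9 stood higher and 8 lower (median 0.0010). The poly(C)-binding protein genes Pcbp2 (71.4 and 78.6 FPKM) and Pcbp1 (32.4 and 35.4 FPKM), KH-domain relatives of Hnrnpk, were at -0.14 and -0.12, and Ewsr1 at 24.2 and 22.4 FPKM. Among 21 kept genes of other splicing regulators, 8 stood higher and 13 lower (median -0.018 as deposited). Mbnl2 was at 5.39 and 6.11 FPKM, Rbm17 at 15.7 and 17.2 FPKM and Rbm4 at 8.16 and 7.41 FPKM.

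The medians of 2 lists of spliceosome genes and of the list of nonsense-mediated decay genes lay above those of the lists before. They stood between 0.033, the median of the 2882 abundant protein-coding genes, and 0.087, the median of the members. Of those 2882 genes 63.2% were higher. Of 14 genes of U2AF and SF3 subunits, which recognise the branch point and the splice acceptor, 10 were higher, with a median of 0.048. U2af2 was at 38.0 and 34.1 FPKM, Phf5a at 40.7 and 36.7 FPKM and Sf3a3 at 29.6 and 27.4 FPKM. Of 13 genes of Sm and U1 or U2 particle proteins 8 were higher, with a median of 0.054, and Snrpe (45.8 and 40.0 FPKM), Snrpb2 (15.9 and 13.8 FPKM) and Snrpa1 (17.3 and 15.5 FPKM) had the largest differences. Of 15 genes of nonsense-mediated decay and the exon junction complex 11 were higher, with a median of 0.064. Magoh was at 48.4 and 44.0 FPKM, Smg8 at 5.29 and 4.76 FPKM and Smg5 at 16.6 and 15.3 FPKM. In these 9 lists together, none reached 1.5-fold, which of the 9965 kept protein-coding genes only 4 did upward and 6 downward. The medians of the lists lay between -0.018 and 0.064, against 0.087 for the members. With libraries rescaled to the same sum, the 9 medians lay between 0.053 and 0.14, against 0.18 for the members, and with the median of all kept genes set to 0 the SR-related and hnRNP-related lists turned to -0.0055 and -0.012.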

How the data were processed

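RNA-seq values of 2 libraries, 1 per group, were used as deposited by the authors, in FPKM rounded to 2 decimals with a gene length per row. The submitters' processing notes name the aligner STAR 2.4.0i, the counter featureCounts 1.5.0-p1 and the build mm10. Strand setting, annotation and the handling of multi-mapping reads are not stated there.

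FPKM times length fell on whole multiples of 1 step. For genes under 400 bases with under 30 reads, 100% of 3560 values in the library labelled Mettl8 siRNA and of 3120 in the library labelled scramble siRNA were whole within rounding plus 0.005 reads. Read totals per gene were rebuilt from denominators of 27.8 M and 28.5 M reads and used for exact Poisson (levels) and Clopper-Pearson (ratios) intervals at 95%. They describe counting error alone, since reads lack molecular identifiers and may repeat a molecule.

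Differences used a pseudocount of 1, and counts and medians genes with a mean of at least 1 FPKM. All members are named, with the 3 largest differences at a mean of at least 5 FPKM from each other list. Members and lists were chosen with earlier results of these data known. GENCODE M21 (GRCm38, the assembly of mm10) gave gene types, transcripts and GC content, and blastn 2.17.0 the pseudogene matches. The principal transcript is the protein-coding one of best APPRIS rank, then the longest. Computation used Python 3.11.15, pandas 2.3.3 and scipy 1.17.1, and steps were tested on simulated data. Alternatives were other pseudocounts, filters and scalings, and the principal transcript length, chosen after seeing the data. Protein features planned at first were not analysed here.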

Additional observations from a re-analysis of the deposited data

How the results depend on the processing

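No paired analysis was possible because each group has 1 library and no test was made; for the same reason no replicate could be left out. A pseudocount of 5 left 2 members at least 1.1-fold higher, against 6 as reported, and put 5.87% of all kept genes past this limit upward and 5.74% downward, since it shrinks low values by construction. Without a filter on low values 7.89% of genes lay 1.1-fold or more below. With the median of all kept genes set to 0, 2 members were at least 1.1-fold higher. Rescaling the libraries to the same FPKM sum multiplied the library labelled Mettl8 siRNA by 1.07 and shifts every gene upward: 19 members were at least 1.1-fold higher and 0 lower in any size, the medians were 0.18 over all members, 0.21 over SR genes, 0.16 over hnRNP genes and 0.089 over all kept genes, and 33.7% of kept genes passed this limit upward and 7.47% downward. The counts and medians kept within 1.5 times or within counting error under a pseudocount of 0.1 and a mean of at least 5 FPKM. Of the single members, 23 moved beyond counting error under the rescaling, and none did under the other settings. The sign changed for 6 members under the rescaling and for 2 under the centring. As given above, the rescaling factor rests mainly on rows that are not protein-coding genes. Culture-to-culture spread was not measured and limits every difference given.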
